A study of Mus musculus with 6 samples.

Results

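The ADAM genes encode membrane proteins with a disintegrin domain, and 6 of them were measured here in mouse dendritic cells sorted as mannose receptor negative (MR-) or positive (MR+). The genes were chosen by symbol: every probe of the array that the annotation assigned to Adam8, Adam9, Adam10, Adam15, Adam17, Adam19 or Adam23 was taken, which gave 15 of 45281 probes for 6 of the 7 genes and 6 of 19057 annotated genes. No probe carried the symbol Adam19, so that gene was not analysed here. The list was drawn up with the MR+ against MR- values already known, Adam23 being among the largest differences, so the members' own differences are given as a description with no test. Mouse bone marrow was cultured in GM-CSF, a cytokine from which dendritic cells develop, over 1 week, and the cells then took up ovalbumin carrying the dye Alexa647. Uptake of this ligand of the mannose receptor was used to sort MR- from MR+ cells, which were lysed directly after the sort. RNA of each population was put on 3 Illumina bead arrays, numbered M1 to M3 in the titles, so there were 6 arrays in all. Both populations had the same culture, ligand and sort, and the labels name no strain, genotype, age or further agent and do not tell which arrays are from separate animals or cultures, so each p-value reflects the spread of these arrays alone, which may be technical.

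ADAM proteins are made as precursors with a prodomain, a metalloprotease domain, a disintegrin domain and, in most, a transmembrane anchor. In the catalytic members the protease domain binds zinc and cuts other membrane proteins close to the cell surface, a process called shedding that releases cytokines, growth factors and receptor ectodomains. ADAM23 lacks the residues of the zinc site and has no known protease activity, and it is known from neurons, where it binds secreted LGI proteins, and as a ligand of an integrin. In myeloid cells ADAM17 is best known as the enzyme that releases tumour necrosis factor.

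The arrays detected 35.3% to 36.8% of their probes at a detection p under 0.05. Precision is limited by how few arrays there are. Of 12 dendritic cell markers, 11 were detected on enough arrays to be tested. Zbtb46 and Dpp4 were detected on all 3 MR- arrays and on no MR+ array, and Fscn1 on 2 of 3 MR+ arrays. Flt3, the receptor of a dendritic cell growth factor, was detected on no array. MR- and MR+ arrays with the same title number deviated together from their population means, so a value with that number as a block is given where it moves a count of calls by over 1.5 times.

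Of the 15 probes, 10 were detected on at least 3 of the 6 arrays and entered the fit over all probes. They stood for 5 genes: Adam8, Adam9, Adam15, Adam17 and Adam23. By the probe that stood for them, the 4 catalytic members measured differed by 0.07 to 0.85 on the log2 scale. All 4 values were above 0, as were those of 53.3% of all genes tested. Adam8 was at 0.07 ± 0.12 (SE), with its second probe at -0.02, and Adam15 was at 0.25 ± 0.16. With arrays scaled to equal medians the first Adam8 probe was at -0.11. Adam23 differed by -4.52. The difference of Adam23 minus the median of the catalytic members (0.39) was -4.91. Past the threshold used for all probes, an adjusted p under 0.05, lay 3 of the 5 members, of which 2 were higher and 1 was lower in MR+ cells. Among all 9370 genes tested 15.3% lay past it, 8.19% higher and 7.13% lower, and 13.8% of the 16686 probes. The 2 populations did not overlap for 3 of the 5 members and for 34.6% of all genes. With the title number as a block the same 3 members lay past the threshold, as did 30% of all genes. These shares stand beside a list chosen from the same contrast, and nothing is read from them.

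**Figure D1:**
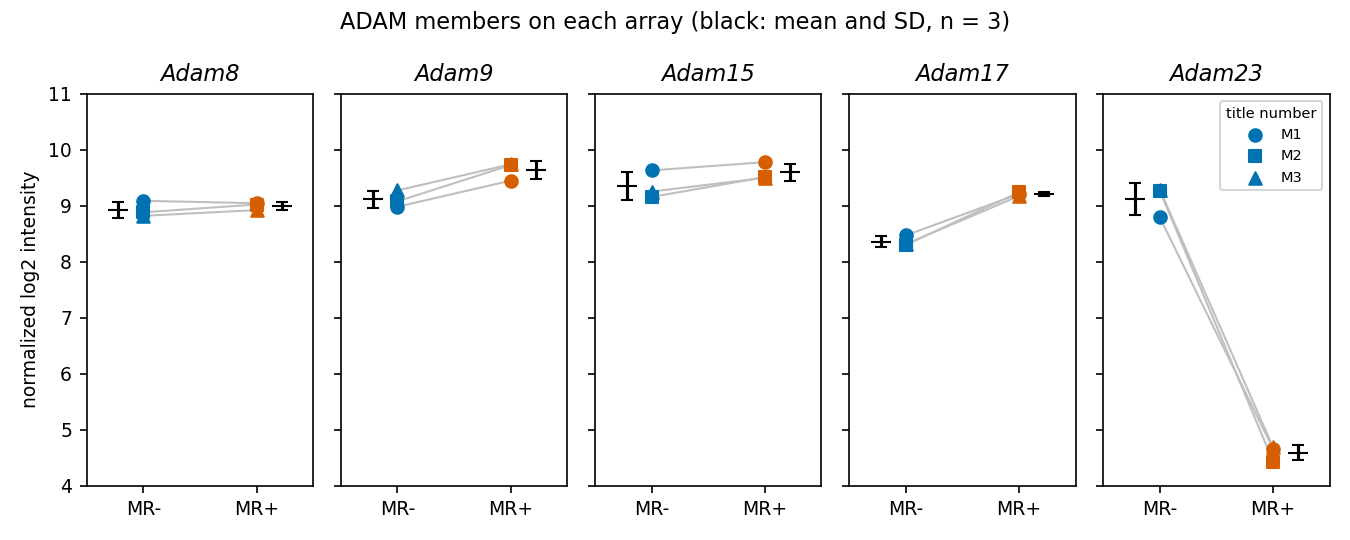
Normalized log2 intensity (y axis) of the brightest probe of each measured ADAM gene on the 3 MR- (blue) and 3 MR+ (red-orange) arrays, with marker shape and grey lines for the title number and black bars for the mean and SD. Adam23 lies between 8.79 and 9.28 on MR- and between 4.43 and 4.68 on MR+ arrays, and heights are not compared between panels because each is another probe.

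Adam23 encodes the non-catalytic member. Its non-normalized signal was 478, 672 and 692 on the MR- arrays M1, M2 and M3, and 35.1, 31.4 and 34.0 on the MR+ arrays of the same numbers. All MR- arrays were thus far above all MR+ ones. After normalization the log2 intensity was 9.11 ± 0.28 (SD, n = 3) in MR- and 4.59 ± 0.14 (SD, n = 3) in MR+ cells, a difference of -4.52 ± 0.17 (SE). Of the MR+ arrays, 2 of 3 detected the probe, and that of M2 did not. For a bound, the lowest detected level replaced the probe's own level on the M2 MR+ array, where the own level was lower. The own levels were kept on the MR+ arrays of M1 and M3. With the offset of the main processing, Adam23 was thus at least 22.3-fold lower in MR+ cells. This bound does not hold for the other background treatments given below. The 3 title numbers gave differences of -4.13, -4.84 and -4.60. The other Adam23 probe, annotated to a cDNA clone rather than to a RefSeq mRNA, was detected on no array, with signals from 25.1 to 27.4, and so gives no fold. The size depended on the background treatment: it was -3.34 with an offset of 50 and -4.01 in the authors' quantile-normalized values.

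Markers of other cells and of mature dendritic cells differed between the populations beside Adam23. Over all genes tested 8.19% rose and 7.13% fell, and 30% passed with the block. The lists here and below were chosen with earlier results known, so their counts are a description. Of the T cell markers, 2 fell, 1 rose and 3 did not pass, with the block 3 fell and 2 rose, and without the M1 MR+ array 2 rose. Cd3g, part of the antigen receptor of T cells, fell by 5.98 ± 0.30 (adjusted p = 6.4e-05), and Cd3d, a further part, was detected on no MR+ array and lay at least 13.7-fold lower (adjusted p = 9.2e-04). Cd2, a lymphocyte adhesion receptor, was detected on no MR- array and lay at least 1.95-fold higher (adjusted p = 0.0017). The summed normalized level of all 11 T cell markers on the array was 2820 to 4608 on MR- and 926 to 1225 on MR+ arrays. Of the 11, Cd4, Cd8a and Cd247 were detected on no array. Cd3e was detected on 1 MR- array and Zap70 on 2 MR- arrays, both on no MR+ array. Their log2 means in MR- cells were 4.44 and 4.53, close to background, and they were not tested. Cd8b1 (-0.50 ± 0.18) and Cd28 (0.21 ± 0.28) were detected on all 6 arrays, and Lat (1.17 ± 0.32) on 2 MR- and 3 MR+ arrays. Without the block none of these 3 passed. These genes were named after their values were seen. Of the NK cell markers 2 fell and 1 did not pass. Klrd1, a lectin-like NK receptor, fell and was lower by a factor of at least 22.4 (adjusted p = 0.0024). Klrk1, an activating receptor, was detected on no MR+ array and lay at least 2.80-fold lower. Klrk1 lost its call without any 1 array except the M1 MR- array (adjusted p = 0.051 to 0.089), and its other 2 probes, at -0.82 and -0.71, did not pass. Over the NK list, the sum of all 8 markers was 530 to 1668 against 198 to 250, with Klrd1 the brightest of them on every MR- array. The NK cell markers Ncr1, Klrb1c, Eomes, Gzmb and Nkg7 were detected on no array. Of 11 dendritic cell markers tested, 10 fell and 1 rose in MR+ cells, and the sum of all 12 on the array was 44690 to 54700 against 21570 to 28430. With 1 array left out 7 to 10 fell, and 7 fell with no filter. Cd74 lost its call without any of 5 arrays, H2-Aa without any of 4, and H2-Ab1 without the M3 MR- array (adjusted p = 0.056), all 3 being genes of MHC class II presentation. The other 2 H2-Ab1 probes, at -1.42 and -1.21, both passed. H2-Eb1, a further class II gene named after its value was seen, fell by 1.66 ± 0.21 (adjusted p = 0.0029). It kept its call whichever array was left out. The deepest falls among the dendritic cell markers were in Fscn1, Dpp4 and Ccr7. Fscn1, which bundles actin in mature dendritic cells, was at least 12.7-fold lower, and Dpp4 at least 10.5-fold lower. Ccr7, a chemokine receptor for migration to lymph nodes, was at -3.23 ± 0.28. Ciita was at -2.34 ± 0.38 (adjusted p = 0.0073, and 0.061 with no filter). Zbtb46 was detected on no MR+ array and lay at least 3.04-fold lower (adjusted p = 5.2e-04). The rise was in Itgax, the integrin chain CD11c (1.22 ± 0.19, adjusted p = 0.0064), named after its value was seen, and its second probe differed by 0.49 and did not pass. The part of these markers in the Adam23 difference was not tested, and in bulk samples fewer cells of a type and less RNA per cell cannot be told apart.

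The remaining cell type lists were compared in the same way. Of 9 macrophage and monocyte markers tested, 1 rose, that of Mertk, and 0 fell by limma; with the block 3 rose and 2 fell, and the unadjusted p was under 0.05 for 3 higher and 1 lower. With 1 array left out, 2 rose without the M1 MR+ or the M2 MR+ array, and 2 fell without the M1 MR- array. With an offset of 50, in the authors' values or by the probe of smallest p, 2 rose. The brightest probe of Lyz2, lysozyme, was at 0.13 ± 0.14 and did not pass, while its other 2 probes differed by 0.71 and 1.29 and both passed. Lyz2 was named after its values were seen. The summed level of the 9 was 23600 to 25920 on MR- and 26910 to 29240 on MR+ arrays, with Lyz2 the brightest of them on every array. Of 10 neutrophil markers 0 passed by limma, 5 fell at an unadjusted p under 0.05 and 6 fell with the block. The 2 of smallest p were Elane (-0.80 ± 0.23, adjusted p = 0.063, and 0.0040 with the block) and Ngp (-0.69 ± 0.21, adjusted p = 0.076, and 0.0035 with the block). Without the M1 MR+ array or the M2 MR- array, 3 fell. The sum of all 11 ranged from 5570 to 17750 and from 3619 to 5913. The B cell list had 1 rise and 1 fall among 4 tested, Cd22 and Blk. Cd22 was detected on no MR- array and lay at least 1.18-fold higher. Blk was detected on no MR+ array and lay at least 2.73-fold lower. Cd22 lost its call without any 1 array (adjusted p = 0.058 to 0.142), and Blk without any 1 except the M1 MR- array (0.093 to 0.166). Both lost it with an offset of 50 (0.125 for Cd22 and 0.092 for Blk) and with cyclic loess (0.050 and 0.061). Cd22 also lost it with equal medians (0.072), and Blk with no filter (0.226). That list had sums of 179 to 266 and of 169 to 189 over 8 markers. The mast cell and basophil list had 1 fall among 4 tested and 3 that did not pass, and with the block 1 rise and 1 fall. The rise with the block was in Kit, the stem cell factor receptor (0.50 ± 0.32 and adjusted p = 0.375 without the block, 0.027 with it), named after its value was seen. The fall was in Hdc, the enzyme that makes histamine (-2.86 ± 0.31, adjusted p = 0.0014). Its sums over 8 markers ran from 998 to 1363 and from 549 to 821.

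Adam17 encodes the protease that releases tumour necrosis factor and many other membrane proteins. The brighter of its 2 probes gave signals of 389, 347 and 356 on the MR- arrays M1 to M3, and of 579, 592 and 516 on the MR+ arrays. Every MR+ array was above every MR- array. On the normalized log2 scale the intensity was 8.36 ± 0.09 (SD, n = 3) in MR- and 9.20 ± 0.03 (SD, n = 3) in MR+ cells. The difference was 0.85 ± 0.11 (SE), or 1.80-fold. Taken by title number it was 0.74, 0.94 and 0.86. The second probe had signals of 199, 133 and 126 in MR- and 199, 176 and 229 in MR+ cells. Its difference was 0.65 ± 0.22, which did not pass the threshold over all probes without the block but did with it. It too had no overlap after normalization, although on M1 the difference was only 0.14 and on M3 it was 1.24. With arrays scaled to equal medians the difference of the brighter probe was 0.69.

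Adam10 encodes the closest relative of ADAM17 among the members, a sheddase that also cuts Notch receptors. Neither of its 2 probes was detected on enough arrays to be tested. The first had signals of 34.0, 26.3 and 36.2 on the MR- and 26.8, 26.3 and 36.1 on the MR+ arrays M1 to M3, and only the 2 arrays of M3 detected it. The second was detected on no array, with signals from 27.8 to 32.9. These values lie near the array medians of 27.6 to 30.3, so no level or fold is given for Adam10, and the probes place no bound on the protein.

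**Figure D2:**
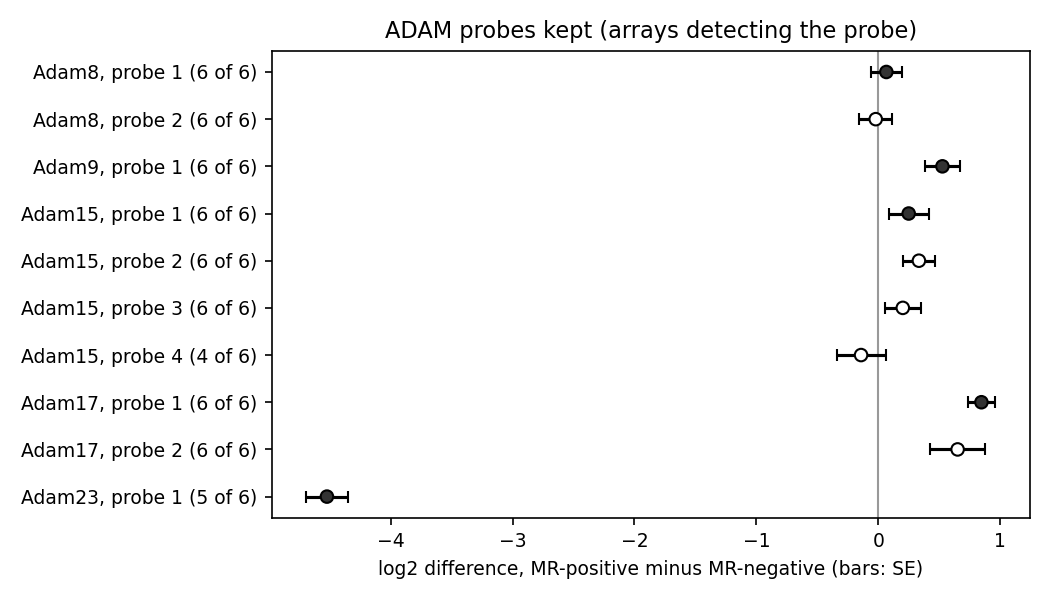
Log2 difference, MR+ minus MR- (x axis), with its standard error for the 10 ADAM probes that were kept, numbered within a gene from the brightest, with the number of arrays detecting each in brackets. Filled points stand for the gene; only the Adam23 probe lies far from 0, at -4.52.

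Adam9 encodes a widely expressed sheddase and was represented by a single probe. Its signal was 545, 590 and 686 on the MR- and 673, 823 and 754 on the MR+ arrays M1 to M3. The non-normalized values overlapped, since the MR+ M1 array lay under the MR- M3 array. After normalization they no longer overlapped, with 9.11 ± 0.15 (SD, n = 3) in MR- and 9.63 ± 0.16 (SD, n = 3) in MR+ cells. The difference was 0.53 ± 0.14 (SE), or 1.44-fold, and 0.47, 0.65 and 0.47 by title number. Adam9 was the member nearest to the threshold over all probes: of the 3 members past it, only Adam9 dropped out without any 1 array other than the M1 MR+ array, and also with cyclic loess, equal medians or no filter. With equal medians the difference was 0.35.

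Adam15 encodes a catalytic member with an integrin-binding disintegrin domain, and 4 of its 5 probes were kept. The brightest gave signals of 835, 622 and 675 on the MR- and 850, 709 and 641 on the MR+ arrays M1 to M3, so the populations overlapped. On the normalized log2 scale the intensity was 9.34 ± 0.25 (SD, n = 3) and 9.59 ± 0.16 (SD, n = 3), and the difference was 0.25 ± 0.16 (SE). The other 3 kept probes, all dim with signals from 30.1 to 76.9, differed by 0.33 ± 0.13, 0.20 ± 0.15 and -0.14 ± 0.20. They thus disagreed in sign, and the probe with the negative value was detected on 4 of 6 arrays. By title number that probe gave -0.16, -0.70 and 0.44. The fifth probe, annotated to a cDNA clone, was detected on no array.

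Adam8 encodes a catalytic member found on leukocytes, and its 2 bright probes showed nearly equal values in both populations. The first had signals of 587, 520 and 502 on the MR- and 516, 502 and 432 on the MR+ arrays M1 to M3. On the normalized log2 scale it was 8.93 ± 0.14 (SD, n = 3) and 8.99 ± 0.07 (SD, n = 3), with a difference of 0.07 ± 0.12 (SE). The second differed by -0.02 ± 0.14. These differences were smaller than their standard errors and of opposite sign, and with equal medians that of the first probe was -0.11. The third probe was detected on 1 array, the M1 MR- array, and was not kept.

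**Figure D3:**
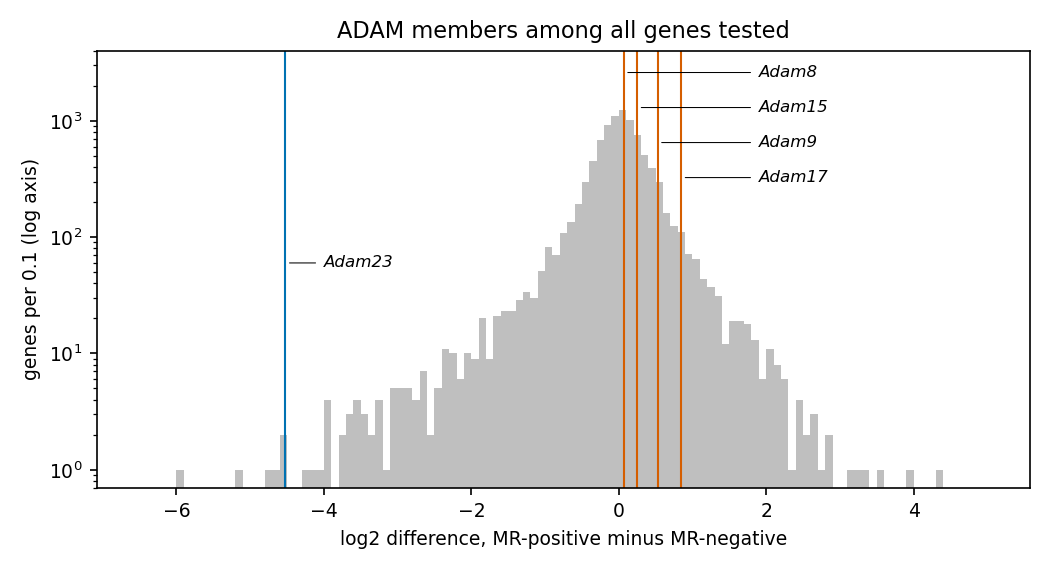
Distribution of the log2 difference, MR+ minus MR- (x axis), over the 9370 genes tested, as genes per bin on a log axis, with vertical lines at the 5 measured ADAM genes. The 4 catalytic members lie between 0.07 and 0.85, at percentiles 55.7 to 95.4 of all genes, and Adam23 lies at -4.52 in the left tail.

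The 5 measured members differed among themselves in how they followed the arrays. Across the 6 arrays the normalized values of Adam17 and Adam23 had a Pearson correlation of -0.998, those of Adam9 and Adam17 one of 0.86, and those of Adam8 and Adam15 one of 0.85, while Adam8 and Adam9 gave 0.004. These values describe 6 arrays in 2 separated populations and share the normalization. The 5 genes with the profile most like that of Adam23, among 9369 others, were Lmtk2, a membrane kinase (Pearson correlation 0.9992, log2 difference -0.95), Gcnt2, a glycosyltransferase (0.9991, -1.77), Kmo, an enzyme of tryptophan breakdown (0.9988, -2.40), Il1r2, the decoy receptor of interleukin-1 (0.9987, -1.81), and Sema6d, a membrane semaphorin (0.9985, -2.70). Each of them had a smaller difference than Adam23. The 3 genes most like Adam17 were Rab11fip5, a Rab11 effector (0.9993, log2 difference 0.82), Ctsa, a lysosomal carboxypeptidase (0.9984, 1.24), and Gstm1, a glutathione transferase (0.9983, 2.11). For Adam9 they were Tmem60, Acvr1 and Nln (0.9950 to 0.9969), for Adam15 Klhl6, Abca3 and Ccl2 (0.9962 to 0.9991), and for Adam8 Bola3, Prkd3 and Sap30 (0.9871 to 0.9911).

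The sequence before the start of the gene is shown for the members with the largest difference in each direction, from RefSeq windows of 300 bases on GRCm38.p6. Only the bases ahead of the annotated gene start are printed, 5′ to 3′ on the gene's strand, with each CG in capitals. The arrays carry no measurement of these regions. The Adam23 stretch is chr1:63445641-63445716 (+ strand) and the Adam17 stretch chr12:21373633-21373882 (- strand).
Adam23: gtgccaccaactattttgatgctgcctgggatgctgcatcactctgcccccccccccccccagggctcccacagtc
Adam17: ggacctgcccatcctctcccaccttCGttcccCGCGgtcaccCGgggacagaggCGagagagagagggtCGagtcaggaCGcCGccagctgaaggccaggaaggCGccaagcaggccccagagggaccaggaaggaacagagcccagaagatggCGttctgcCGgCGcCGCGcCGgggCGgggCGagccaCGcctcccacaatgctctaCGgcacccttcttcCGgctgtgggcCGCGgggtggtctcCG
The 76 bases of Adam23 hold 0 CG and the 250 bases of Adam17 hold 23. The full Adam23 window, which runs past the annotated start, holds 31, and that of Adam17 holds 30, against a median of 7 over 32851 windows, of which 10.6% and 11.7% held at least as many. The GC box GGGCGG, searched on both strands, was in 35.7% of all windows. It occurred 1 time in the window of Adam17 and 0 times in that of Adam23. The half-site of nuclear receptors such as PPARγ, AGGTCA, was in 16.3% of all windows, and the PU.1 core GAGGAA in 28.3%, and neither was in the window of Adam17 or Adam23. A match or its lack describes only these letters.

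The remaining ADAM genes gave few values. Of 26 other ADAM genes on the array, counting the related Adamdec1, 24 were detected on too few arrays to be tested. Adam22, another non-catalytic member that binds LGI proteins, differed by 0.21 ± 0.13 and did not pass. Adam22 was detected on 1 MR- and all 3 MR+ arrays, with log2 means of 4.51 and 4.72, close to background. Its bound was 1.12-fold higher in MR+ cells. Adam11, the third member of that group, fell in MR+ cells (-0.74 ± 0.20, adjusted p = 0.0457). It was detected on all 3 MR- arrays and on no MR+ array, so it was at least 1.34-fold lower. Its log2 values were 4.66, 5.40 and 4.84 against 4.23, 4.27 and 4.19, all close to background. The call was lost without any 1 array except the M1 MR- array (adjusted p = 0.073 to 0.142), with an offset of 50 (0.104) and with no filter (0.155). Of 17 ADAMTS genes, secreted relatives with thrombospondin repeats, 3 were tested. Adamts7 (-0.16 ± 0.15, adjusted p = 0.58), Adamts6 (0.10 ± 0.11, 0.64) and Adamts13 did not pass. By limma 0 of the 3 passed, also at an unadjusted p under 0.05 and with the block.

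The next list holds genes taken as regulators of ADAM proteins and of other metalloproteases. Of 14 tested genes of this list 5 rose, 1 fell and 8 did not pass, and with the block 5 rose and 2 fell. The median difference was 0.22 against 0.02 over all genes. For comparison with this list and those below, 8.19% of all genes rose and 7.13% fell, and 30% passed with the block. No enrichment was tested. Timp2 and Timp1 encode secreted inhibitors of metalloproteases. Timp2 was at 8.01, 7.28 and 7.38 on the MR- and 9.27, 9.13 and 9.18 on the MR+ arrays, and rose by 1.64 ± 0.20 (adjusted p = 0.0023). Timp1 rose by 1.31 ± 0.21 (adjusted p = 0.0075), and its second probe differed by 1.39 and passed too. Both inhibitors were higher on every MR+ array. Timp3, detected on 1 MR+ array and no MR- array, and Timp4, detected on no array, were not tested. They were named after their values were seen. Which ADAM proteins the inhibitors act on in these cells was not tested.

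Tetraspanins of the TspanC8 group escort ADAM10 to the cell surface. Of the 6 on the array, 2 rose and 1 fell, and Tspan5, Tspan10 and Tspan15 were detected on no array. Tspan17 rose by 1.87 ± 0.15 (adjusted p = 4.5e-04), from 6.95, 6.51 and 6.52 to 8.44, 8.61 and 8.54. Tspan33 fell, with 5.59, 6.55 and 6.18 in MR- and 4.31, 4.58 and 4.40 in MR+ cells. It was detected on 1 of 3 MR+ arrays and lay at least 2.94-fold lower (adjusted p = 0.0043). Tspan14 rose by 0.45 ± 0.12 (adjusted p = 0.043) but lost the call without any 1 of the 6 arrays (0.082 to 0.144), without both M1 arrays (0.075) and with equal medians (0.176). It was named after its values were seen.

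Furin, the protease that removes ADAM prodomains, rose by 0.66 ± 0.18 (adjusted p = 0.0499). It lost the call without any 1 array except the M1 MR- array (0.067 to 0.151), with equal medians (0.112) and with no filter (0.151), and its second probe differed by 0.59 and did not pass. Rhbdf2, an iRhom that carries ADAM17 to the surface, was at -0.24 ± 0.15, and Rhbdf1, its relative, at -0.0037 ± 0.23. Rhbdf1 was detected on 2 MR- arrays and 1 MR+ array, close to background, so no fold is given for it. Frmd8, which stabilises the iRhom complex, was at 0.29 ± 0.18. None of these 3 passed, and they were named after their values were seen. Without any 1 array except the M1 MR- array, 3 regulator genes rose instead of 5, without that array 4 rose, and 3 rose with equal medians.

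**Figure D4:**
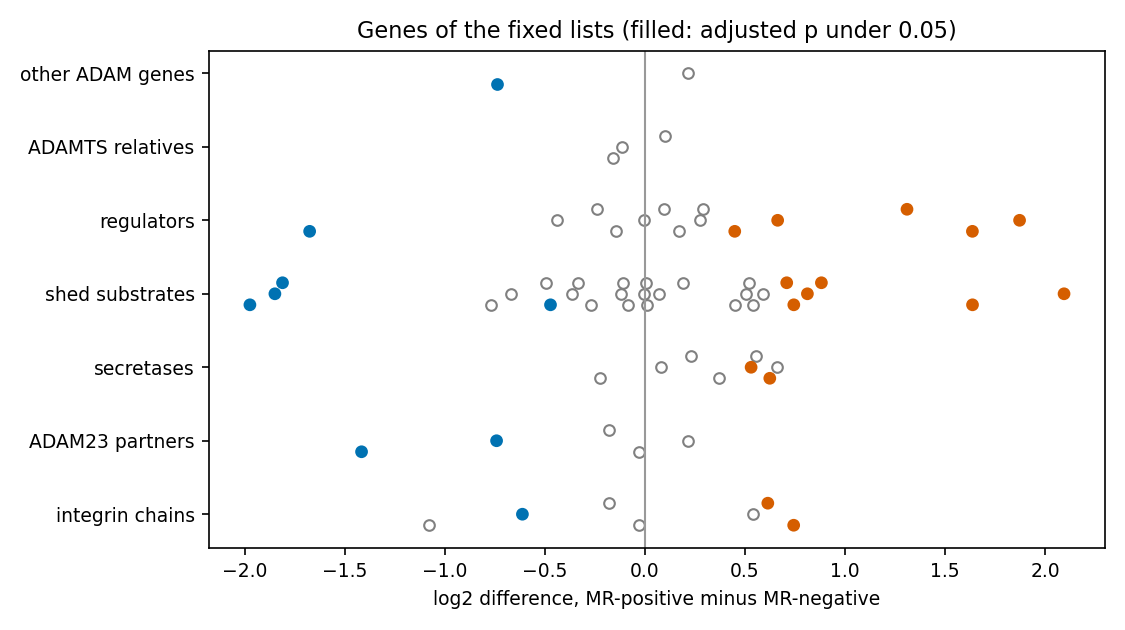
Log2 difference, MR+ minus MR- (x axis), of each tested gene in the fixed lists, with open points for genes that did not pass and filled points for rises (red-orange) and falls (blue) at an adjusted p under 0.05. Among the regulators 5 points are filled to the right and 1 to the left, and among the shed substrates 6 and 4.

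Membrane proteins known to be shed by ADAM proteases moved both ways. Of 29 tested, 6 rose, 4 fell and 19 did not pass, and with the block 11 rose and 7 fell. The median difference was 0.01 against 0.02 over all genes. The largest rises were in Mertk and Trem2. Mertk, a receptor for apoptotic cells, was at 5.65, 4.69 and 4.94 on the MR- and 7.59, 6.93 and 7.04 on the MR+ arrays, and rose by 2.10 ± 0.28 (adjusted p = 0.0033). Trem2, a lipid-sensing receptor, rose by 1.64 ± 0.17 (adjusted p = 0.0012). Axl, a receptor kinase related to Mertk, was at -0.50 ± 0.26 (adjusted p = 0.283, and 0.011 with the block), and Csf1r, the receptor of macrophage growth factor, was at -0.08 ± 0.16 and did not pass. The scavenger receptor gene Cd163 was detected on no array. These 3 genes were named after their values were seen.

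The falls among the substrates were in Cdh1, Cx3cl1, Il1r2 and Spn, the last a leukocyte sialoglycoprotein named after its value was seen (-0.47). Spn lost its call without any 1 array except the M1 MR- array (adjusted p = 0.050 to 0.175), with an offset of 50 (0.067), in the authors' values (0.060) and with no filter (0.059). Its second probe, at -0.15, did not pass. The gene of E-cadherin, Cdh1, fell by 1.97 ± 0.32 (adjusted p = 0.0069, and 0.056 with no filter). Cx3cl1, a membrane-bound chemokine, was detected on no MR+ array and lay at least 3.28-fold lower (adjusted p = 0.0051). Il1r2, which was also among the genes most like Adam23, fell by 1.81 ± 0.13 (adjusted p = 2.5e-04). Tnf, whose product ADAM17 releases, differed by 0.19 ± 0.42, and its receptor gene Tnfrsf1a by 0.01 ± 0.16, and neither passed. Tnfrsf1b, the second receptor of tumour necrosis factor, rose by 0.88 ± 0.18, with an adjusted p of 0.0175, but not without the M2 MR+ array (0.062) or the M3 MR+ array (0.073), nor with no filter (0.069). These 3 genes were named after their values were seen. Without the M2 MR+ array, 3 substrate genes rose, and 3 rose with no filter.

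The stubs that shedding leaves in the membrane are cut by gamma-secretase. Of 8 tested genes of gamma-secretase and the beta-secretases, limma called 2 higher and 0 lower and 6 did not pass, and 5 rose with the block. The unadjusted p was under 0.05 for 5 higher and 0 lower genes. The median difference was 0.45. Aph1b rose by 0.62 ± 0.16 (adjusted p = 0.041) and Psen2 by 0.53 ± 0.12 (adjusted p = 0.029), both being subunits of gamma-secretase. Without the MR- or MR+ array of M2 or of M3, each left out alone, 0 passed by limma. Each lost its call without 5 of the 6 arrays taken 1 at a time (adjusted p of 0.091 to 0.151 for Aph1b and of 0.055 to 0.106 for Psen2) and with equal medians (0.156 and 0.085). Aph1b kept it without the M1 MR- array and Psen2 without the M1 MR+ array. With cyclic loess Aph1b was at 0.052, and with no filter at 0.108.

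Known partners of ADAM23 and of disintegrin domains were the last lists. Of 5 tested partners of ADAM23 and its relatives, 2 fell and 3 did not pass. Prnp, the prion protein gene, fell by 1.42 ± 0.24 (adjusted p = 0.0083, and 0.056 with no filter). The other was Adam11, close to background and with the limits given above. Itgav and Itgb3, the chains of the integrin to which ADAM23 binds, differed by -0.18 ± 0.22 and -0.03 ± 0.13 and did not pass. Itgb3 was detected on 2 MR- arrays and 1 MR+ array, with log2 means of 4.48 and 4.45. These lie close to background, so no fold is given for Itgb3. The genes of the LGI ligands, Lgi1 to Lgi4, were detected on too few arrays to be tested. Of 7 integrin chains tested, 2 rose, 1 fell and 4 did not pass, and with the block 3 rose and 2 fell. Itgb1 rose by 0.74 ± 0.14 (adjusted p = 0.0146, and 0.055 without the M2 MR- array and 0.067 without the M3 MR- array), while its second probe, at 0.55, did not pass. Itga5, its partner in the fibronectin receptor, rose by 0.61 ± 0.14 (adjusted p = 0.026) but not without the M1 MR+ array (0.056), the M2 MR- array (0.080), the M2 MR+ array (0.082) or the M3 MR- array (0.091), nor with equal medians (0.121) or no filter (0.052). Its second probe, at 0.63, did not pass. Itga4 fell, being detected on no MR+ array and at least 1.35-fold lower (adjusted p = 0.027). It lost the call without the M1 MR- (0.052), M2 MR- (0.094), M2 MR+ (0.105) or M3 MR+ array (0.092), with an offset of 50 (0.066) and with no filter (0.055).

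**Figure D5:**
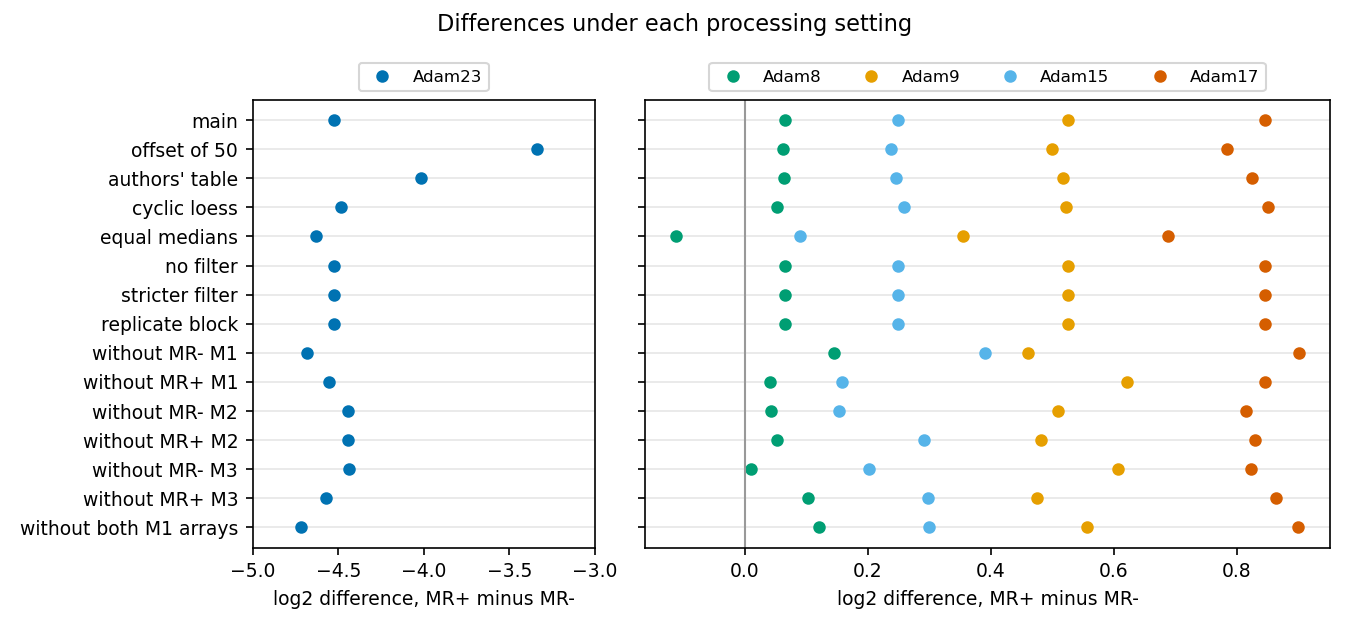
Log2 difference, MR+ minus MR- (x axis), of the measured ADAM genes under each processing setting (rows), with Adam23 on the left and the catalytic members on the right. Adam23 ranges from -4.72 to -3.34, Adam17 from 0.69 to 0.90, and Adam8 lies on both sides of 0, at -0.11 with equal medians.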

How the data were processed

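Intensity in the deposited table without normalization is linear, with a column for each of the 6 arrays and a line for each of 45281 probes. Its array medians of 27.6 to 30.3 differ; whether another scaling had been applied is not given in the sources used. Per the file headers each intensity is followed by a p-value, which was read as the detection p of that array. The series value table, whose sorted intensity columns are the same on all arrays, had been quantile normalized by the authors and served as an alternative. Scanner and software: not given in the sources used here. With limma 3.58.1 in R 4.3.3, neqc corrected the background from the detection p, quantile normalized, added an offset of 16 and took log2. Probes with a detection p under 0.05 on at least 3 of 6 arrays were kept (16686). Of the 45281 probes, 34885 had a single gene symbol, 18 had several and 10378 were not listed in the annotation. Each of 9370 genes was represented by its probe of highest mean. lmFit and eBayes were run with the population as the only term, two-sided, with Benjamini-Hochberg adjustment over all probes and a threshold of 0.05. The code was tested on simulated data. Differences are MR+ minus MR-. Where a probe was not detected on every array of the dimmer population, a fold is a bound against the higher of the lowest detected level and the probe's own level on each array. Each such bound is for the offset of 16 and need not hold for another background treatment. With an offset of 50 the differences of Adam23, Adam11 and Itga4 were smaller in size, at -3.34, -0.32 and -0.26. Summed marker levels are on the linear normalized scale and include the offset of 16 for each marker. The brightest markers of a list therefore weigh most in its sum.

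The members and lists were chosen with earlier results of these data known. Named were all members, up to 5 genes of each list with the largest difference past the threshold (if none passed, 2 by smallest p), and the 5 (Adam23) or 3 genes most correlated with a member. Title numbers were taken as pairs, since arrays of the same number deviated together from their population means (correlation 0.708 for M1, 0.569 for M2 and 0.275 for M3). In leaving out arrays, the normalized values and the probe set were kept. The alternatives were another offset, the authors' values, cyclic loess, equal medians, other filters, another probe, the block and leaving out arrays. No protein sequence was used.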

Additional observations from a re-analysis of the deposited data

How the results depend on the processing

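The probes called numbered 2298, and 4628 with the replicate block. Without 1 array they numbered 1151 to 2544, being 1355 without M2 MR-, 1172 without M2 MR+, 1151 without M3 MR- and 1159 without M3 MR+. Equal medians moved the median of all probes from 0.02 to -0.11 and the share of calls that were higher from 52.2% to 30.65%, and Adam8 was at -0.11. Adam23 minus the catalytic median was -3.71 with an offset of 50 and -4.40 in the authors' values, and -5.11 to -4.78 without 1 array. Without both M1 arrays, an alternative chosen after seeing the data, it was -5.15. Regulator genes that rose numbered 5, 3 with equal medians and 3 to 4 without 1 array. Substrate genes that rose numbered 6, 3 with no filter, 11 with the replicate block and 3 to 7 without 1 array, and those that fell 4, 7 with the replicate block and 3 to 4 without 1 array. Of the measured members, Adam9, Adam15, Adam17 and Adam23 kept their direction under every setting with the probe that stood for the gene, and Adam8 did so in all but equal medians. The block, which pairs arrays by title number, changed no call of a member by the probe that stood for it. It did move the second Adam17 probe past the threshold. Its changes of over 1.5 times in the count of a list stand beside that list. The causes were not tested. Signals near background limit Adam10, Adam11, Adam22, Itgb3, Rhbdf1 and the MR+ values of Adam23.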
